A study of Mus musculus with 6 samples.

Results

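The kinesin genes, which encode motor proteins that walk along or take apart microtubules, were followed in RNA sequencing of mouse NPC, a line of neural progenitors, which are dividing precursors of neurons and glial cells. Members were chosen by symbol, as every gene named Kif or Kifc followed by a digit, without 2 pseudogenes, which left 44 of 42365 genes. By textbook role, 14 were set as mitotic, 14 as transport, 9 as ciliary and 6 as other; the last, Kif16bos, is an RNA transcribed opposite Kif16b and no motor. The 6 libraries came from that line in 3 groups of 2: wild-type parental cells (titled clone 1 and clone 2), and 2 clones with the genotype label KO (knockout), with 2 libraries each. Each labelled knockout group is thus 1 clone sequenced in 2 libraries, and the way the clones were made was not given in the sources used here. No treatment is named.

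Kinesins of cell division build the spindle, move and align chromosomes and close the midzone between daughter cells, and many are made in G2 and M phase and destroyed at mitotic exit. Kinesins of transport carry vesicles, mitochondria and RNA outward along microtubules, which in neurons run the length of the axon. Others move cargo in the primary cilium or set its length. Mitochondria are tied to kinesin-1 by Miro proteins and the adaptors Trak1 and Trak2.

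Library totals ran from 58871554 to 69530032 counts. Genes with a count numbered 37678 and 37419 in parental libraries and 30747 to 32686 in the labelled knockout libraries. Levels below are CPM, counts scaled to a common library size with TMM factors, and a value after ± is the standard error (SE) of a log2 fold change. The clones are called labelled knockout throughout, since counts per gene do not show which exons are present. Of the progenitor markers, Nes ranged from 77.3 to 189 CPM and Sox2 from 304 to 363 in the 6 libraries, while Sox1 was at 60.5 and 60.4 in parental libraries and at most 3.45 elsewhere. Libraries of a group differed by more than sampling noise, most in clone 1. Whether they came from separate cultures is not given, so p-values may measure a technical spread.

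The mitotic motors rose together in the labelled knockout cells. With the 2 clones as replicates against the 2 parental libraries, all 13 tested mitotic members were higher, by 5.11-fold for Kif18b to 73.9-fold for Kif2c, with a median log2 fold change of 3.67 (all 24506 genes tested: 0.032). Higher calls made up 13% of all genes tested and calls in either direction 26.7% (adjusted p under 0.05 in edgeR's quasi-likelihood test). In bulk RNA, fewer or more cells of a type and less or more RNA per cell cannot be told apart. Cycling markers moved with it: the summed level of Mki67, Top2a, Ccnb1 and Plk1, all 4 called higher, was 9.49 to 10.3 CPM in parental, 904 to 936 in clone 1 and 568 in both clone 2 libraries, and its part in the result was not tested. Every one of the 13 lay higher in all 4 labelled knockout libraries than in both parental ones, as did 28.1% of all genes tested. Each stayed called under every alternative run in the comparisons with parental cells.

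**Figure D1:**
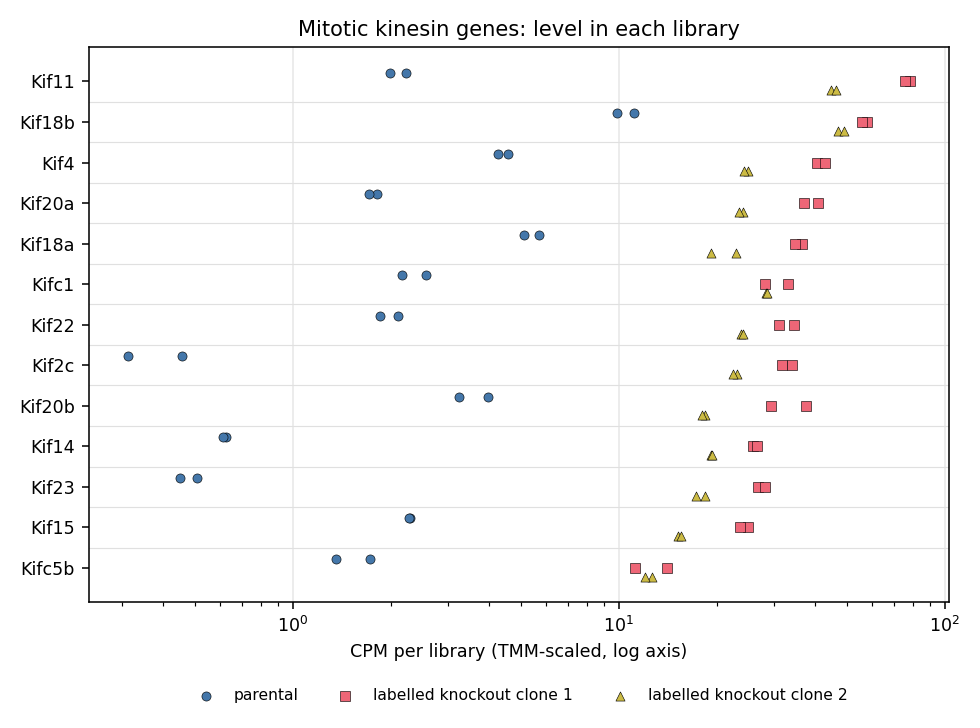
Level of the 13 tested mitotic kinesin genes in each of the 6 libraries, in CPM on a log axis, with a symbol per library and a colour per group. Parental libraries lie far to the left of both clones for each gene, and clone 2 lies left of clone 1 for 11 of the 13.

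The spindle's plus-end motors were scarce in parental cells. Kif11 (Eg5), which slides antiparallel microtubules apart to make the spindle bipolar, was at 2.23 and 1.98 CPM (parental), 78.5 and 75.5 (clone 1) and 44.9 and 46.5 (clone 2). It rose 29.7-fold (4.89 ± 0.30, adjusted p = 0.000558). Kif15, which shares that work with Kif11, was at 2.29 and 2.27 CPM (parental), 24.8 and 23.5 (clone 1) and 15.2 and 15.6 (clone 2), a rise of 3.14 ± 0.25 (adjusted p = 0.00116). For both genes the 3 groups did not overlap, and clone 1 was the highest.

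The motors that take microtubules apart or cap their growth at chromosomes spanned the smallest and the largest rise. Kif2c (MCAK), a depolymerase of the centromere that corrects faulty attachments, went from 0.312 and 0.458 CPM (parental) to 31.7 and 34.0 (clone 1) and 23.1 and 22.4 (clone 2) (6.21 ± 0.30, adjusted p = 0.000351). The parental level rested on 20 and 27 counts. Kif18a, which dampens chromosome movement at the metaphase plate, was at 5.71 and 5.12 CPM (parental), 36.6 and 34.8 (clone 1) and 22.8 and 19.1 (clone 2) (2.42 ± 0.27, adjusted p = 0.00334). Kif18b, which shortens astral microtubules, had the highest parental level per kilobase of exon among mitotic members and was at 9.88 and 11.1 CPM (parental), 57.9 and 56.0 (clone 1) and 47.2 and 49.1 (clone 2) (2.35 ± 0.13, adjusted p = 0.000463). All labelled knockout libraries lay above both parental ones for these genes too. Kif2b, a relative of Kif2c that acts in mitosis, had 0 to 2 counts per library and was not tested.

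Chromokinesins, which bind chromosome arms, rose as well. Kif4, which condenses chromosomes and sets the length of the midzone with Prc1, was at 4.26 and 4.56 CPM (parental), 40.6 and 42.8 (clone 1) and 24.9 and 24.3 (clone 2) (2.94 ± 0.27, adjusted p = 0.00178). Kif22 (Kid), which pushes arms toward the plate, was at 1.86 and 2.10 CPM (parental), 31.0 and 34.5 (clone 1) and 23.7 and 24.1 (clone 2) (3.87 ± 0.21, adjusted p = 0.000393). Exons of Pdzd11 on the other strand cover 15.1% of the exon bases of Kif4, and whether counting used strand was not given in the sources used here.

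Motors of the midzone and of cytokinesis held 2 of the 3 largest rises. Kif23 (MKLP1), the motor subunit of the centralspindlin complex, went from 0.452 and 0.509 CPM (parental) to 26.8 and 28.1 (clone 1) and 18.4 and 17.2 (clone 2). That is a 48.1-fold rise (5.59 ± 0.29, adjusted p = 0.000375). Kif14, which brings citron kinase to the midbody, was at 0.624 and 0.611 CPM (parental), 25.8 and 26.5 (clone 1) and 19.2 and 19.3 (clone 2) (5.23 ± 0.22, adjusted p = 0.000272). Parental libraries held 29 and 30 counts of Kif23 and 40 and 36 of Kif14. Kif20a (MKLP2), which moves the chromosomal passenger complex to the midzone, was at 1.81 and 1.71 CPM (parental), 37.1 and 40.9 (clone 1) and 24.0 and 23.4 (clone 2) (4.18 ± 0.28, adjusted p = 0.000691). Its relative Kif20b, which acts late in abscission, was at 3.96 and 3.24 CPM (parental), 37.6 and 29.4 (clone 1) and 18.4 and 18.1 (clone 2) (2.87 ± 0.32, adjusted p = 0.00331). Exons of Cdc23 on the other strand cover 29.3% of Kif20a, so part of its counts may be those of Cdc23.

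The minus-end motor of the spindle, Kifc1 (HSET), which bundles spindle poles, was at 2.57 and 2.17 CPM (parental), 28.1 and 33.0 (clone 1) and 28.2 and 28.5 (clone 2) (3.67 ± 0.15, adjusted p = 0.000255). Its near copy Kifc5b was at 1.73 and 1.36 CPM (parental), 11.2 and 14.0 (clone 1) and 12.6 and 12.04 (clone 2) (3.05 ± 0.19, adjusted p = 0.000567). The genes share sequence: 36.6% of the 50-base windows of Kifc5b transcripts also occur in Kifc1, so their counts are not independent. For this pair the clones overlapped, unlike the other 11 tested mitotic members.

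Promoters of these genes are shown because so many of them moved together. In cell cycle genes of G2 and M phase, a short element near the start, the CHR (commonly TTTGAA, at times TTCGAA), is bound by the DREAM and MYB-MuvB complexes, and CCAAT boxes are bound by NF-Y. RefSeq promoters of GRCm38.p6 (250 bases before to 50 after a start) were matched to 34 of 44 members by symbol; Kif13b, Kif19a, Kif19b, Kif20a, Kif21b, Kif28, Kif5a, Kif5b, Kifc2 and Kifc3 were not matched. The 150 bases before the RefSeq start follow for 2 mitotic members that rose and for Kif26b, which fell, with capitals marking a match to either CHR form or to the CCAAT box on either strand. Read on the reverse strand, the CCAAT box appears as ATTGG, and the common form of the CHR appears as TTCAAA.
Kif11: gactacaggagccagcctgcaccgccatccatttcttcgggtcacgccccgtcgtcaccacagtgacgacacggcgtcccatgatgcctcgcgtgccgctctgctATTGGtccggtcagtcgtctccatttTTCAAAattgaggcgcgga
Kif18b: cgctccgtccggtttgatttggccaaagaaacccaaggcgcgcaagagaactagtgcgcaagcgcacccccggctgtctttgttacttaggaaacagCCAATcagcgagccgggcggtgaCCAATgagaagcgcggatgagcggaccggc
Kif26b: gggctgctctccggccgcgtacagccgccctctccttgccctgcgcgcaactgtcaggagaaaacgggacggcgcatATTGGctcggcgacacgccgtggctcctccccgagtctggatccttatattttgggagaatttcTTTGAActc
These stretches lie at chr19:37376232-37376381 (plus strand), chr11:102925125-102925274 (minus) and chr1:178528975-178529124 (plus), and hold 0 bases of GENCODE vM21 exons.

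TTTGAA occurred in 11 of the 12 matched promoters of tested mitotic members (91.7%), against 17.9% of all 32851 promoters and 2 of 19 promoters (10.5%) of 16 transport and ciliary members. The member without it was Kif18a. CCAAT and TTTGAA or TTCGAA stood together in 8 of the 12 (66.7%) and in 7.52% of all promoters. Both counts include the near copies Kifc1 and Kifc5b, whose motifs had the same spacing, so these promoters may not be independent. Their CCAAT boxes before the start began at -74 and -45 in Kifc1 and at -46 and -17 in Kifc5b. Positions varied. Counted from the RefSeq start, the nearest TTTGAA match began at -19 in Kif11 and Kif15, at -17 in Kif22, at -103 in Kif2c and at -228 in Kif14. It began after the start in the other 6, at 2 in Kifc1, 3 in Kif23, 4 in Kif18b, 8 in Kif20b, 20 in Kif4 and 30 in Kifc5b, which the printed stretch of Kif18b does not reach. In Kif24, a ciliary member that rose, the match was TTCGAA, at -26, a form found in 1.56% of all promoters. Members that fell held TTTGAA too: Kif27, Kif1a (at -44) and Kif26b (at -9). A match describes letters in a window; no binding was measured.

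Summed per kilobase of exon, which allows levels of different genes to be added, the mitotic members made up 2.43 to 2.48% of kinesin motor RNA in parental libraries, 28.0 to 28.2% in clone 1 and 19.3 to 19.7% in clone 2. Transport members held 78.7 to 78.8%, 56.8 to 57.2% and 64.0 to 64.5%, and ciliary members 14.2 to 14.3%, 10.2 to 10.3% and 12.3 to 12.4%. Their sum in CPM per kilobase was lower too: transport members added to 237 to 241 in parental libraries, 172 to 177 in clone 1 and 200.2 to 205 in clone 2. Transport motors thus remained most of the kinesin RNA in all 6 libraries. No test was applied to these sums.

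**Figure D2:**
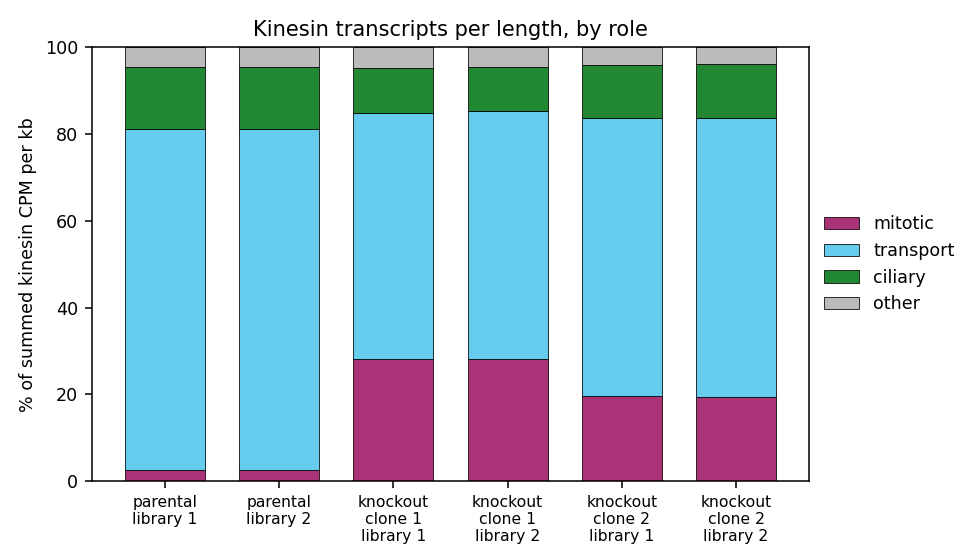
Share of summed kinesin CPM per kilobase of exon taken by each role, in percent, for each of the 6 libraries. The mitotic share is 2.43 to 2.48% in parental libraries, 28.0 to 28.2% in clone 1 and 19.3 to 19.7% in clone 2.

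Per kilobase of exon, Kif1a led in parental cells at 62.7 CPM, followed by Kif1b at 45.9, Kif1c at 39.3 and Kif3a at 27.2. In clone 1 the order was Kif1b at 37.7, Kif1a at 35.0, Kif21b at 23.4, Kif5b at 22.6 and Kif3a at 18.1, and in clone 2 Kif1b at 42.5, Kif1a at 38.9 and Kif21b at 34.0. These neighbours were further apart than the 2 libraries of a group. Kif1c and Kif18b overlapped in clone 1 (15.7 to 16.7 and 15.7 to 16.2), as did Kif3a and Kif1c in clone 2 (23.7 to 23.9 and 22.8 to 24.5). Kif18b was the highest mitotic member in both clones, at rank 7 and rank 8 of all members.

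The transport and ciliary motors did not move as a block. Of 23 members, all tested, 4 rose (Kif21b, Kif13a, Kif13b and Kif24), 7 fell (Kif1a, Kif1c, Kif21a, Kif5a, Kif5c, Kif3b and Kif27) and 12 did not pass with the clones as replicates. Their median log2 fold change was -0.34, against 0.032 over all genes tested, of which 13.6% were called lower. All 4 labelled knockout libraries lay below both parental ones for 13 of the 23 (28.6% of all genes tested did) and above them for 6 (28.1%). Kif6, counted among the 13, passed the filter on low counts through the parental libraries alone, so its direction was set by it. The largest falls were those of Kif5a, Kif21a and Kif5c, of 5.34-fold to 5.62-fold. Some calls rested on both parental libraries: with either one left out, which cut the calls among all genes tested to 9.62% and 9.59%, Kif1a, Kif1c, Kif21b, Kif13a, Kif13b, Kif24 and Kif3b missed the threshold (adjusted p from 0.0688 to 0.371), and without parental library 1 so did Kif27 (-1.19, adjusted p = 0.104). The log2 fold changes of the first 7 stayed close to those from both libraries, at -0.72 and -0.73 for Kif1a, 1.02 and 1.03 for Kif21b and 1.13 and 1.03 for Kif24. With libraries as replicates and the clone effects averaged, 13 of the 23 were called lower, in a fit that called 28.5% of all genes tested lower.

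**Figure D3:**
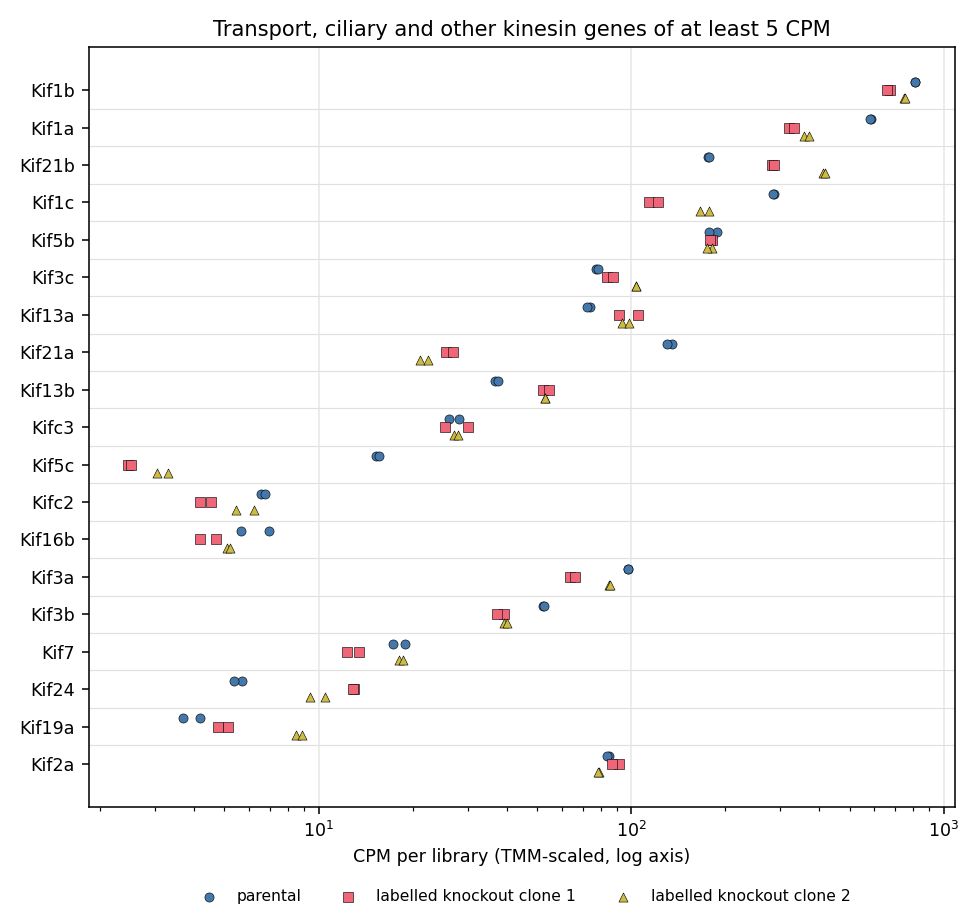
Level of the transport, ciliary and other kinesin genes averaging 5 CPM or more in each of the 6 libraries, in CPM on a log axis. Kif21a and Kif5c lie far left in both clones, Kif21b and Kif24 lie to the right, and for Kif5b and Kifc3 the groups overlap.

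Kinesin-1, the main carrier of vesicles and mitochondria, fell in its neuronal heavy chains, while no change was called for the ubiquitous one. Kif5b, the heavy chain found in nearly all tissues, was at 189 and 178 CPM (parental), 182 and 178 (clone 1) and 181 and 175 (clone 2), and the groups overlapped. Kif5c was at 15.2 and 15.6 CPM (parental), 2.46 and 2.51 (clone 1) and 3.05 and 3.29 (clone 2) (-2.42 ± 0.18, adjusted p = 0.000925). Kif5a, the other chain enriched in neurons, was at 9.60 and 8.36 CPM (parental), 1.36 and 1.95 (clone 1) and 1.37 and 1.56 (clone 2) (-2.49 ± 0.18, adjusted p = 0.000838). The 4 labelled knockout libraries all lay below both parental ones for Kif5a and Kif5c. Per kilobase, Kif5b thus supplied 86.8 to 87.1% of heavy chain RNA in parental libraries and 97.3 to 97.7% and 97.0 to 97.3% in the clones.

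Kinesin-3 motors carry synaptic vesicle precursors and endosomes. Kif1a, the motor of synaptic vesicle precursors, was at 587 and 583 CPM (parental), 320.3 and 333 (clone 1) and 356 and 369.8 (clone 2) (-0.73 ± 0.098, adjusted p = 0.00581). Kif1c, a carrier of dense-core vesicles and integrins, was at 287 and 284 CPM (parental), 114 and 122 (clone 1) and 166 and 178 (clone 2) (-0.95 ± 0.19, adjusted p = 0.0207). In both, parental cells were highest and clone 1 lowest, with no overlap. Kif1b, a carrier of mitochondria and vesicle precursors, was at 811 and 806 CPM (parental), 672 and 657 (clone 1) and 744 and 754 (clone 2), and did not pass (-0.16 ± 0.10, adjusted p = 0.296). Kif13a, which brings recycling endosomes outward, was at 73.9 and 72.1 CPM (parental), 91.6 and 105 (clone 1) and 93.6 and 98.2 (clone 2) (0.45 ± 0.083, adjusted p = 0.0164). Kif13b, which carries membrane scaffold proteins, was at 36.6 and 37.4 CPM (parental), 52.3 and 54.8 (clone 1) and 53.2 and 52.9 (clone 2) (0.56 ± 0.087, adjusted p = 0.00943). Their rises were small, 1.36-fold and 1.47-fold, with every labelled knockout library above both parental ones. Kif16b, an early endosome motor, was at 6.92 and 5.63 CPM (parental), 4.18 and 4.69 (clone 1) and 5.09 and 5.19 (clone 2) and did not pass (-0.36 ± 0.19, adjusted p = 0.222).

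The kinesin-4 pair Kif21a and Kif21b, which halt microtubule growth in axons and dendrites, moved in opposite directions. Kif21a was at 135 and 130.2 CPM (parental), 25.6 and 27.0 (clone 1) and 21.1 and 22.3 (clone 2) (-2.43 ± 0.12, adjusted p = 0.000373). Kif21b was at 176 and 177 CPM (parental), 282 and 287 (clone 1) and 411 and 418 (clone 2) (1.02 ± 0.19, adjusted p = 0.0167). Neither gene overlapped between any of the 3 groups. Per kilobase, Kif21b made up 40.9 to 42.0% of the pair in parental libraries, 85.0 to 85.4% in clone 1 and 90.9 to 91.2% in clone 2.

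Kinesin-2, the motor of transport toward the ciliary tip, is a trimer of Kif3a, Kif3b or Kif3c and the adaptor Kifap3. Kif3b was at 52.1 and 52.6 CPM (parental), 39.3 and 37.2 (clone 1) and 39.2 and 40.0 (clone 2) and fell by a small amount (-0.40 ± 0.089, adjusted p = 0.0284). Kif3a was at 97.5 and 97.9 CPM (parental), 63.8 and 66.1 (clone 1) and 85.0 and 85.7 (clone 2), lower in all 4 labelled knockout libraries but without passing (-0.34 ± 0.15, adjusted p = 0.154). Kif3c, a neuronal partner of Kif3a, was at 77.3 and 78.5 CPM (parental), 83.8 and 87.3 (clone 1) and 104 and 104 (clone 2) (0.31 ± 0.12, adjusted p = 0.121), and 40.7% of its exon bases lie in exons of antisense RNAs. Kifap3 was at 53.3 and 55.7 CPM (parental), 49.4 and 49.9 (clone 1) and 57.0 and 57.3 (clone 2), below parental cells in clone 1 and above them in clone 2. Without a filter on low counts Kif3b missed the threshold (adjusted p = 0.0923), as it did with the clone number as a block (0.0514).

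Among the other ciliary members, Kif24, a depolymerase at the mother centriole that holds back cilium growth, was at 5.71 and 5.36 CPM (parental), 12.96 and 12.9 (clone 1) and 10.5 and 9.36 (clone 2) (1.08 ± 0.18, adjusted p = 0.0113). Kif27, a relative of Kif7 in motile cilia, was at 2.95 and 2.21 CPM (parental), 0.854 and 0.918 (clone 1) and 0.906 and 1.09 (clone 2) (-1.42 ± 0.24, adjusted p = 0.0121). Kif7, which acts at the tip of the cilium in Hedgehog signalling, was at 18.9 and 17.3 CPM (parental), 12.4 and 13.5 (clone 1) and 18.1 and 18.7 (clone 2), and only clone 1 lay apart. Kif19a, which limits cilium length, was at 3.68 and 4.17 CPM (parental), 5.12 and 4.78 (clone 1) and 8.50 and 8.84 (clone 2) and did not pass (0.83 ± 0.30, adjusted p = 0.103); with the clone number as a block it did (adjusted p = 0.0294). Kif9, Kif17 and Kif6 ranged from 0.117 to 2.04 CPM and did not pass. Some markers of ependymal cells, which bear motile cilia, were lower as well: of 5 found, 4 were tested and 3 fell, beside 13.6% of all genes tested. Of the 4, Dnah5 and Rsph1 passed the filter on low counts through the parental libraries alone, so their direction was set by it. The summed level of the list was 42.7 to 44.1 CPM in parental, 10.7 to 11.9 in clone 1 and 11.3 in both clone 2 libraries, with none at 0 throughout. Most of that sum was Foxj1, at 37.6 and 39.4 CPM (parental), 7.02 and 6.94 (clone 1) and 8.06 and 7.37 (clone 2). For Ccdc39 the groups overlapped (3.17 to 4.80 CPM), and Rsph1 and Tekt1 had at most 11 counts in any library. The part of these markers in these results was not tested.

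Minus-end transport motors did not pass: Kifc3, of cell junctions and the Golgi, was at 28.1 and 26.1 CPM (parental), 25.4 and 30.2 (clone 1) and 27.0 and 27.9 (clone 2), and Kifc2, found in dendrites and axons, at 6.55 and 6.72 CPM (parental), 4.16 and 4.52 (clone 1) and 5.43 and 6.20 (clone 2) (-0.35 ± 0.20, adjusted p = 0.249). Of the members with another role, Kif2a, a depolymerase of both spindle poles and axon branches, was at 84.9 and 83.6 CPM (parental), 91.8 and 86.7 (clone 1) and 79.0 and 78.6 (clone 2), slightly above parental cells in clone 1 and slightly below in clone 2, and did not pass (0.027 ± 0.095, adjusted p = 0.863). Kif26b, an atypical kinesin of cell migration, was at 3.45 and 3.27 CPM (parental), 0.747 and 0.729 (clone 1) and 0.800 and 0.487 (clone 2) (-2.24 ± 0.20, adjusted p = 0.00155). Kif28 had 20 and 18 counts in parental and 1 to 8 in other libraries (-2.38 ± 0.55, adjusted p = 0.0308), and its call was lost with either parental library left out (adjusted p = 0.142 and 0.128) or clone 1 library 2 (0.0798). Kif28, Kif6 and Kif19b passed the filter on low counts through the parental libraries alone, so their direction was set by it. Kif26a and Kif19b did not pass, and Kif2b, Kif12 and Kif16bos, with at most 5 counts in any library, were not tested.

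Neuron and astrocyte markers differed between the groups as well, and not all in one direction. Among motors with roles in axons or dendrites, Kif5a, Kif5c, Kif1a and Kif21a fell, Kif21b rose, and Kif3c was higher in all 4 labelled knockout libraries without passing. Of 8 neuron markers, 4 fell and 0 rose, where 13.6% and 13% of all genes tested were called lower and higher. Tubb3 was at 13.2 and 12.98 CPM (parental), 3.11 and 3.32 (clone 1) and 2.52 and 2.76 (clone 2), and Dcx at 66.6 and 66.9 CPM (parental), 10.5 and 10.3 (clone 1) and 8.53 and 8.34 (clone 2). Map2 lay above parental cells in both clones (0.35 ± 0.15) and Syt1 in clone 1 only (1.17 ± 0.47), and neither passed. Syt1 was at 3.01 and 2.44 CPM (parental), 8.54 and 8.87 (clone 1) and 2.93 and 3.68 (clone 2). In clone 1 alone Syt1 and Map2 were called higher (1.67 ± 0.14, adjusted p = 2.08e-08, and 0.53 ± 0.048, adjusted p = 8.91e-08). The summed level of the list, most of it Map2, was 1067 to 1075 CPM in parental, 1351 to 1506 in clone 1 and 1041 to 1064 in clone 2 libraries. Of 6 astrocyte markers 4 fell and 1 rose, with sums of 5494 to 5535, 1161 to 1166 and 1213 to 1222 CPM. Gfap was at 2663 and 2719 CPM (parental), 1.53 and 1.65 (clone 1) and 9.50 and 9.91 (clone 2). Gja1 was at 435 and 428 CPM (parental) and at most 1.14 elsewhere. Most of the sum in the clones was Slc1a3, at 1059 to 1084 CPM there and 1584 and 1575 in parental libraries, and S100b was higher in all 4 labelled knockout libraries. Of 6 oligodendrocyte markers 2 rose and 2 fell (1045 to 1051, 4768 to 4835 and 5583 to 5841 CPM). The neuron markers Rbfox3, Snap25 and Stmn2 and the oligodendrocyte marker Mog passed the filter on low counts through the parental libraries alone. Their direction was therefore set by it. No marker in these lists was at 0 in all libraries. The part of any of them in the motor results was not tested. Markers of microglia, endothelial and mesenchymal cells and pluripotent cells summed to at most 4.44 CPM per list.

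Each clone was also tested on its own against parental cells, in a fit that held all 6 libraries. The 2 comparisons share the parental libraries, so what they have in common is not independent evidence. In clone 1, 19 of 41 tested members were higher and 15 lower, where 27.3% and 27.2% of all genes were called in those directions and 54.5% in either. In clone 2, 19 were higher and 14 lower, against 26.7% and 26.8%, and 53.5% in either. Both counts of lower members include Kif28, which passed the filter on low counts through the parental libraries alone. All 13 mitotic members were higher in each, by a median of 3.68 in clone 1 and 3.58 in clone 2 on the log2 scale. Kif2c rose by 6.42 ± 0.13 in clone 1 and 5.89 ± 0.13 in clone 2, Kif23 by 5.83 ± 0.12 and 5.21 ± 0.12, and Kif18b by 2.44 ± 0.067 and 2.20 ± 0.067. In this fit, which treats libraries of a clone as replicates, 13 and 11 of the 23 transport and ciliary members were lower and 6 and 6 higher. Kif1b, Kif3a and Kif9 were then called lower and Kif3c and Kif19a higher in both clones. Kif1b changed by -0.28 ± 0.039 and -0.11 ± 0.039, Kif3a by -0.59 ± 0.045 and -0.19 ± 0.045, and Kif19a by 0.34 ± 0.12 and 1.14 ± 0.11. Calls in 1 clone were Kif7, Kifc2 and Kif16b, lower in clone 1, and Kif17 and Kif26a, lower in clone 2. Kif5b and Kifc3 were called in neither. With either clone 2 library left out, the count of transport and ciliary members called lower in clone 2 was 7.

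**Figure D4:**
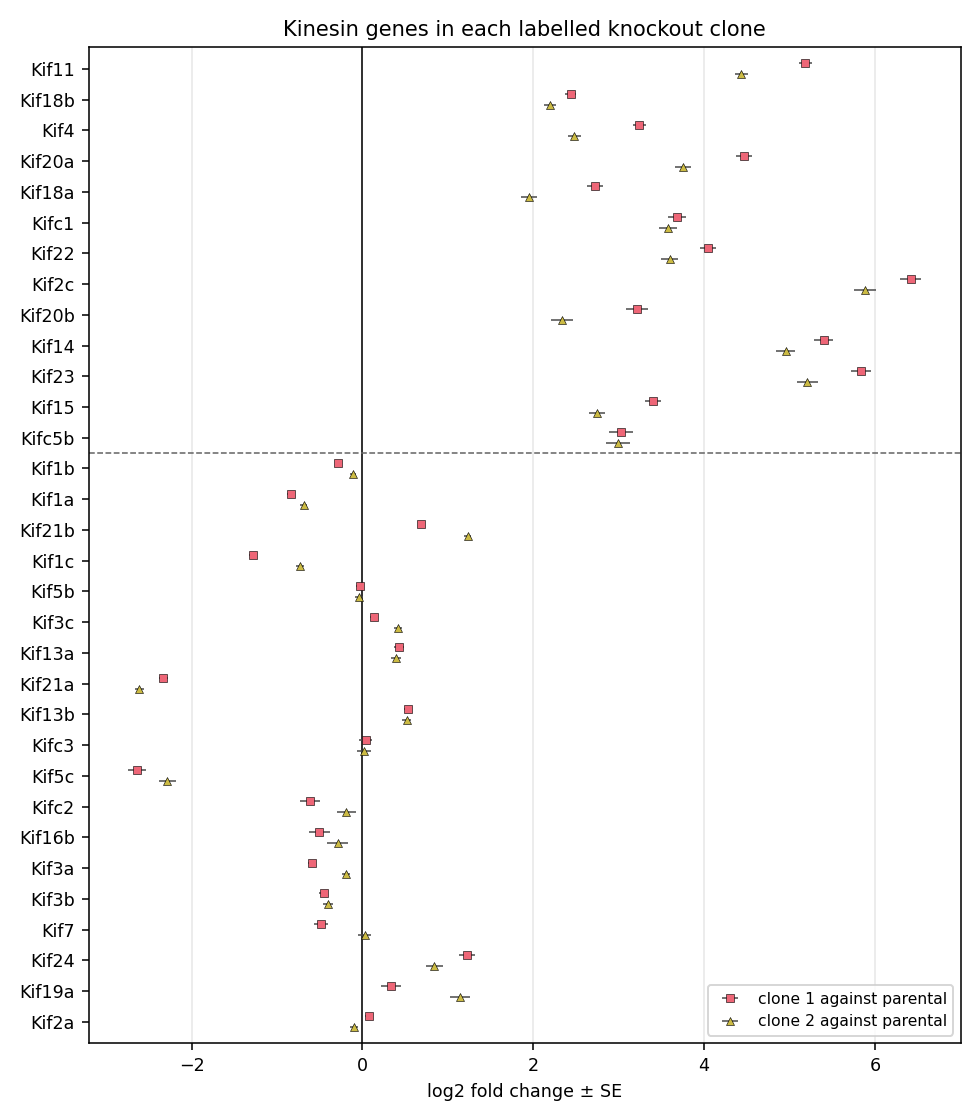
Log2 fold change with its SE for the 13 tested mitotic members (above the dashed line) and the other members of at least 5 CPM, in clone 1 and in clone 2 against the parental libraries. Mitotic members lie between 1.95 and 6.42, and the rest between -2.64 and 1.23.

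The clones were then compared with each other, in the same fit. Clone 2 had less mitotic motor RNA than clone 1: 11 of 13 mitotic members were lower and 0 higher, with a median of -0.62 on the log2 scale (-0.0055 over all 23400 genes tested, 20.3% of them lower and 16.1% higher). The falls ran from -0.24 ± 0.060 for Kif18b to -0.88 ± 0.11 for Kif20b. Kif11 was 1.68-fold lower (-0.75 ± 0.055, adjusted p = 2.46e-08). Kifc1 and Kifc5b did not pass (adjusted p = 0.341 and 0.84). Transport and ciliary members went mainly the other way, with 10 of 23 higher and 3 lower in clone 2. Kif19a (0.81 ± 0.11, adjusted p = 2.25e-05), Kif1c (0.54 ± 0.048, adjusted p = 2.18e-07), Kif21b (0.54 ± 0.040, adjusted p = 2.56e-08) and Kif7 (0.51 ± 0.079, adjusted p = 9.43e-05) led the rises. The 3 that were lower were Kif21a, Kif24 and Kif17, and without clone 2 library 2 the count was 1. The cycling markers were also lower in clone 2, all 4 of them, and the part of this in the result was not tested. With 1 clone a side, a difference of clones and of culture cannot be told apart.

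**Figure D5:**
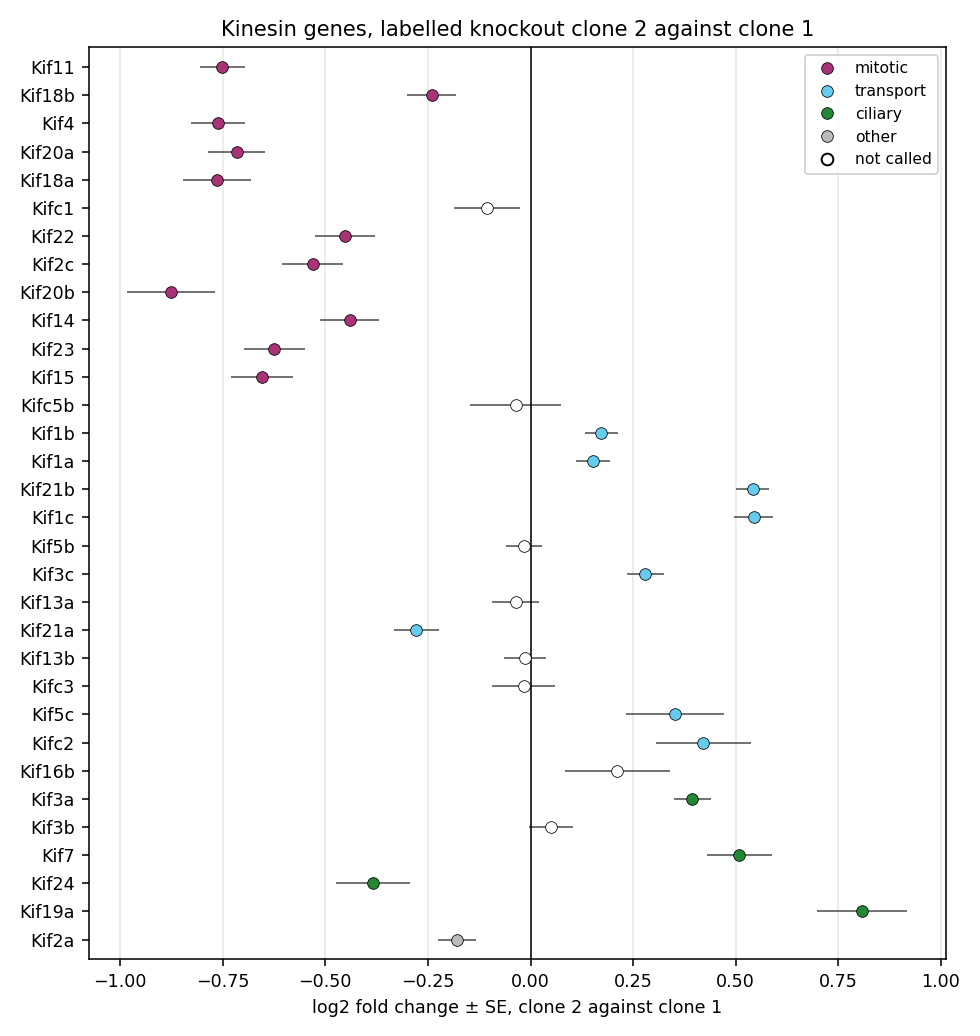
Log2 fold change with its SE of clone 2 against clone 1 for the mitotic members and the other members of at least 5 CPM, coloured by role, with open symbols for members that were not called. Mitotic members lie left of 0, from -0.88 to -0.036, and transport and ciliary members mostly right of it, up to 0.81.

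Partners of the mitotic motors were mostly higher too. Of 18 spindle partners, 15 rose and 1 fell with the clones as replicates (26.7% of all genes tested were called), with a median of 4.18. Cenpe, the kinesin-7 of the kinetochore and a kinesin by protein family, was at 0.842 and 0.950 CPM (parental), 84.2 and 83.0 (clone 1) and 49.8 and 45.9 (clone 2) (6.23 ± 0.34, adjusted p = 0.000463). Racgap1, the partner of Kif23 in centralspindlin, was at 4.63 and 4.31 CPM (parental), 88.3 and 98.1 (clone 1) and 65.3 and 67.6 (clone 2) (4.19 ± 0.20, adjusted p = 0.000331). Aurkb and Cdca8 of the chromosomal passenger complex rose by 6.31 ± 0.25 (adjusted p = 0.000232) and 4.95 ± 0.19 (adjusted p = 0.000217). Hmmr, which anchors spindle poles, rose by 7.19 ± 0.16 (adjusted p = 0.00013). The gene that fell was Kifbp, which binds kinesin motor domains and is also 1 of the 9 that fell in the list of adaptors below. Numa1 and Ckap5 did not pass. These 3 genes were named after their values were seen.

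Among 25 light chains, adaptors and cargo links of kinesins, 1 rose and 9 fell, with a median of -0.17; over all genes tested 13% were called higher and 13.6% lower. Fez1, a kinesin-1 adaptor of axons, was at 155 and 147 CPM (parental), 52.0 and 66.3 (clone 1) and 54.5 and 58.9 (clone 2) (-1.35 ± 0.087, adjusted p = 0.000624). Klc1, the main kinesin light chain, was at 154 and 144 CPM (parental), 70.8 and 83.0 (clone 1) and 103 and 109 (clone 2) (-0.67 ± 0.17, adjusted p = 0.0403). Mapk8ip3 (JIP3), a scaffold between motors and cargo, fell 1.85-fold (-0.89 ± 0.14, adjusted p = 0.0108). Arl8a, which links lysosomes to kinesin, changed by -0.56 ± 0.089 (adjusted p = 0.0102), and the light chain Klc3, under 1 CPM throughout, by -2.63 ± 0.33 (adjusted p = 0.00458). Klc3, counted among the 9, passed the filter on low counts through the parental libraries alone, so its direction was set by it. The links to mitochondria were not among those that fell. Rhot1 (Miro1) was at 66.9 and 67.4 CPM (parental), 62.1 and 58.6 (clone 1) and 78.0 and 76.5 (clone 2), below parental cells in clone 1 and above them in clone 2 (0.069 ± 0.14, adjusted p = 0.757). Rhot2 (Miro2) was at 10.8 and 10.2 CPM (parental), 11.1 and 11.7 (clone 1) and 12.7 and 13.5 (clone 2) (0.25 ± 0.14, adjusted p = 0.252). Trak1, which joins Miro to kinesin-1, was at 212 and 216 CPM (parental), 219 and 228 (clone 1) and 261 and 263 (clone 2) (0.21 ± 0.11, adjusted p = 0.22), and the 1 gene of the list that rose was Trak2 (0.35 ± 0.086, adjusted p = 0.035), named here after its value was seen.

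Dynein and dynactin, the motor that runs inward and its activator, mostly did not pass: of 25 genes 1 rose and 1 fell, beside 13% and 13.6% of all genes tested, with a median of -0.096. The light chain Dynlt3 was at 41.3 and 39.6 CPM (parental), 87.6 and 75.8 (clone 1) and 83.9 and 77.8 (clone 2) (1.04 ± 0.087, adjusted p = 0.00126), and the cargo adaptor Bicd1 changed by -0.37 ± 0.10 (adjusted p = 0.0475). In the fit of single libraries 4 of the 25 rose and 12 fell in clone 1, where 27.3% and 27.2% of all genes tested were called higher and lower. In clone 2, 3 rose and 11 fell, beside 26.7% and 26.8% of all genes tested. The 11 include Dync1i1, which passed the filter on low counts through the parental libraries alone.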

How the data were processed

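RNA was extracted with RNeasy mini kits and libraries were made with either a SMART-Seq v4 ultra-low input or a TruSeq kit, per the labels' protocols; the kit of each library was not given in the sources used here, so kit and group may be confounded in every comparison between groups. Values deposited by the authors are raw counts per gene for 6 libraries. STAR and featureCounts, and the builds GRCm38.p6 and mm10, are named per the submitters' processing notes; versions and strand setting were not given in the sources used here.

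Counts were tested in edgeR 4.0.16 (R 4.3.3) with the robust quasi-likelihood test, filterByExpr (minimum count 10), TMM scaling and Benjamini-Hochberg adjustment over all genes tested, with a threshold of 0.05. The labelled knockout clones were compared with parental libraries with the 2 libraries of a clone summed, so that the clone is the replicate, and each clone was compared with parental cells and with the other clone in a fit of 6 libraries in 3 groups. The fits were tested on simulated data. Levels per kilobase use the union of exons in GENCODE vM21 (GRCm38). Overlap means that the ranges of libraries meet.

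Members and lists were chosen with earlier results of these data known. Values in every library are given for each mitotic member and for each other member averaging 5 CPM or more, and for lower ones where a result turns on them; up to 4 genes of a partner list were named by smallest adjusted p, with a few partners set by role. Alternatives were other scalings and filters, DESeq2 1.42.0, other units of replication, a replicate block and leaving out each library. Promoters are those of RefSeq. The gene targeted in the clones is not reported here.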

Additional observations from a re-analysis of the deposited data

Results flagged for a closer look

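Effects against parental cells that differed between the clones are given here as log2 fold changes of clone 2 against clone 1, each with an adjusted p under 0.05 by the quasi-likelihood test of edgeR, with libraries of a clone as replicates. In all, 26 of 41 tested members differed (63.4%), against 36.4% of all genes tested. The mitotic members with a smaller rise in clone 2 were Kif20b (-0.88), Kif18a (-0.76), Kif4 (-0.76), Kif11 (-0.75), Kif20a (-0.72), Kif15 (-0.65), Kif23 (-0.62), Kif2c (-0.53), Kif22 (-0.45), Kif14 (-0.44) and Kif18b (-0.24). Kif24, which rose in both clones, rose less in clone 2 (-0.38), and Kif21a fell further there (-0.28). Falls were smaller in clone 2 for Kif1c (0.54), Kif3a (0.39), Kif5c (0.35), Kif1b (0.17) and Kif1a (0.15), and Kifc2 (0.42) and Kif7 (0.51) were called lower in clone 1 alone. Rises were larger in clone 2 for Kif19a (0.81), Kif21b (0.54) and Kif3c (0.28). Kif26a (-1.96) and Kif17 (-0.75) were lower in clone 2, and Kif2a differed by -0.18 without a call against parental cells in either clone. Kif26a rested on 24 and 30 counts in clone 1 and 5 and 8 in clone 2.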

How the results depend on the processing

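Of 1735 values of single genes recomputed under the alternatives, 1635 kept their direction and their side of the threshold, 74 lost a call, 25 gained one and 1 reversed; the 494 values of mitotic members against parental cells were all among those kept. The reversal was Kifc1 between the clones, not called in any case: leaving out 1 library gave -0.2002 to 0.0104, the latter without clone 1 library 2 (adjusted p = 0.942). Values smaller than their SE and not called were given no direction.

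With clones as replicates, members called lower were 16 with the averaged clone effect and 5 with a filter at a mean of 5 CPM, and transport and ciliary members called lower were 13 with the averaged effect, which called 28.5% of all genes tested lower. Leaving out 1 library gave 4 to 10 members lower, 0 to 4 transport and ciliary members higher and 3 to 7 lower. In clone 2 against parental cells, a filter at a mean of 5 CPM, which tests fewer genes, left 8 members and 7 transport and ciliary members lower, and leaving out 1 library gave 7 to 12 of the latter. Between the clones, leaving out 1 library gave 1 to 3 transport and ciliary members lower.

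Same-numbered libraries correlated in their deviations at -0.248 (parental and clone 1), -0.0547 (parental and clone 2) and 0.27 (clone 1 and clone 2). With a lone deviation per group, these values cannot settle whether the numbers pair the libraries. With the replicate block, 18 members were higher and 8 lower with clones as replicates, 13 of the higher ones mitotic; 19 higher and 15 lower in clone 1; 19 and 13 in clone 2; and 10 and 16 between the clones. Few counts limit Kif2c, Kif23, Kif14 and the members under 1 CPM. Where a parental library is left out, the lone one is assumed to vary like the clones.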
